A study of Mus musculus with 9 samples.

Results

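A set of 10 genes that move calcium in and out of the cytosol of heart muscle cells was followed through single-nucleus RNA sequencing (sNuc-seq) of 9 mouse hearts. They were taken by name (Ryr2, Casq2, Trdn, Jph2, Cacna1c, Atp2a2, Pln, Sln, Slc8a1 and Camk2d), and all 10 were rows among the 23747 genes of every sample. C57BL/6 mice fell into 3 groups of 3. Sham mice were given vehicle by gavage for 7 days and were operated on without ischemia. I/R mice were given vehicle for the same 7 days, then had the left anterior descending coronary artery tied for 30 min and reopened for 24 h. SBP mice were given Shexiang Baoxin Pill (MUSKARDIA in the labels) over the same 7 days and then went through the procedure of the I/R mice. The study took its tissue from below the ligation, and nuclei rather than whole cells were captured, so the transcripts are nuclear and include unspliced RNA. The comparisons asked how I/R altered the nuclei of the heart and how SBP altered them after I/R.

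In every heartbeat, calcium enters through L-type channels and opens ryanodine receptors, which release a larger store from the sarcoplasmic reticulum. The muscle relaxes as a pump returns the calcium to that store and an exchanger carries the rest out of the cell. The proteins that do this are held together where the surface membrane meets the sarcoplasmic reticulum, and a calcium-dependent kinase adjusts several of them.

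Of the 10 genes, 7 had promoter entries in RefSeq (GRCm38.p6), and 3 are printed to show the gene with the strongest level per length, a gene with most of its UMIs in cardiomyocytes and the gene least limited to them. Each is the 250 bases before the RefSeq transcription start, 5′ to 3′, on the plus strand. RefSeq and the GENCODE gene models given further on place some starts differently: the Casq2 starts are the same, the last 19 bases of the Pln window lie past the GENCODE start of Pln, and the whole Camk2d window lies inside the GENCODE model of Camk2d, from 399 bases after its start. The Pln window is chr10:53337436-53337685, with TATAAA in capitals. The Casq2 window is chr3:102086165-102086414, with a match to the MEF2 motif in capitals. The Camk2d window is chr3:126596701-126596950, with every CpG in capitals.
Pln: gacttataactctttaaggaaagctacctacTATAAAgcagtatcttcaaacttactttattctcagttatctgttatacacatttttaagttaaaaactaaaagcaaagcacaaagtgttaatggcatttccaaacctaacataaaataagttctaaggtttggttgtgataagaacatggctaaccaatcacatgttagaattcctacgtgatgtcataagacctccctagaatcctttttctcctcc
Casq2: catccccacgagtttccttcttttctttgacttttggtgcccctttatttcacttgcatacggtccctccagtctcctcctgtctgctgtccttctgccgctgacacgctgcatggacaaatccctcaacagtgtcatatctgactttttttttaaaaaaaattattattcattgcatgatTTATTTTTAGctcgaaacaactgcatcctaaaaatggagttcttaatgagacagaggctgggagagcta
Camk2d: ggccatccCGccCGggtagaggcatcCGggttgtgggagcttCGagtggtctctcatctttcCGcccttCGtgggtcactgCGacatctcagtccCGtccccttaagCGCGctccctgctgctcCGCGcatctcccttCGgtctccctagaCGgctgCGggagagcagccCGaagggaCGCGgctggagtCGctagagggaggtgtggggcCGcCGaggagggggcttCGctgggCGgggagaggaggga
The Pln window was 32.8% G and C and held 1 CpG, where the median over 32851 promoters was 52.4% and 6 CpG. Its TATAAA began 219 bases before the RefSeq start, and TATAAA on either strand was in 12.37% of promoters. The Casq2 window held 5 CpG, and its MEF2 match, which began 69 bases before its start, is of a kind found on either strand in 2.92% of promoters. The Camk2d window was 68.4% G and C and held 23 CpG, more than 86.7% of promoters. The letters describe these windows and show no binding.

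The 9 samples held 49171 nuclei, with 4576 to 6418 nuclei, 10329520 to 18205985 unique molecular identifiers (UMIs, one per captured transcript) and a median of 1540 to 2031 UMIs per nucleus in a sample. Nuclei were fewer than the study states, and because cell types were rebuilt here from marker genes, the names may set any difference from the study. The 10545 cardiomyocyte-like nuclei (called cardiomyocytes from here on; 943 to 1490 per mouse) formed 1 cluster in which all 6 markers were detected (Ttn, Myh6, Tnnt2, Actn2, Mybpc3 and Tnni3), with 59546695 UMIs in all. Samples stood apart within it. When the cluster was divided again, 6 of its 7 subclusters were filled mainly by 1 or 2 mice, for example 94.1% and 87.0% of the cardiomyocytes of sham replicates 1 and 3 in one, and 89.2% of those of I/R replicate 3 in another. A subcluster of 955 nuclei held 85.3% of the cardiomyocytes of I/R replicate 1 and is given no name of its own. Its leading genes were Spp1, Gpnmb, Mpeg1, Ctss and Lyz2, known from macrophages, with Col1a1, Gm40841, Fat3, Arntl and Gm49891. All 6 cardiomyocyte markers were each found in at least 91.8% of its nuclei and summed to 32763 CPM (UMIs of a gene per 1000000 UMIs), against 29315 in all cardiomyocytes and 2227 in myeloid cells. The 6 myeloid markers summed to 105.5 CPM, against 61.3 in all cardiomyocytes and 4799 in myeloid cells. Spp1 stood at 173.9 CPM, against 33.3 and 398.3 in the same order, and Lyz2 at 56.7, against 18.5 and 283.8. The comparisons of cardiomyocytes include this subcluster, and the main ones are also given without it. Another subcluster, of 1988 nuclei with 97.0% of the cardiomyocytes of I/R replicate 2 and 89.3% of those of SBP replicate 1, was led by Saa3, an acute phase gene, and also by S100a8, S100a9 and Ankrd1. No 2 samples shared more than 14 cell barcodes. A doublet caller marked 85 nuclei (0.173%), which were removed. At under 0.5% it was taken not to have worked, and other doublets may remain.

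Cardiomyocytes made up 29.1%, 24.1% and 27.0% of the nuclei in sham mice, 16.9%, 18.2% and 21.9% in I/R mice and 18.6%, 19.3% and 19.4% in SBP mice. Every sham heart was above every other heart, and a two-sided exact permutation test gave p = 0.1 for both I/R and SBP against sham, the smallest that 3 against 3 samples allow. Summed over all nuclei of a heart, the 10 genes gave 28022, 21855 and 23987 CPM in sham mice, 21249, 15617 and 14871 in I/R mice and 17281, 17123 and 18599.5 in SBP mice. In cardiomyocytes alone this sum was 47037, 38250 and 37125 CPM in sham mice, 48018, 36437 and 27908.5 in I/R mice and 35595, 35947 and 40907 in SBP mice, so every sham heart was above every I/R and SBP heart over all nuclei, while the groups overlapped within cardiomyocytes. In a whole-heart sum, fewer cardiomyocyte nuclei and less RNA per cardiomyocyte cannot be told apart.

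Of the 10 genes, 9 were detected in cardiomyocytes of all 9 mice, and most were far higher there than in any other type ranked. Schwann cells reached 20 nuclei in only 1 mouse and were not ranked. There they held 3231 CPM of Ryr2. For the 7 genes of this paragraph the cardiomyocyte mean was 1.92-fold (Casq2) to 5.88-fold (Cacna1c) their level, and 3.49-fold for Ryr2. Ryr2, the ryanodine receptor, averaged 11262 ± 2885 CPM in cardiomyocytes (SD, n = 9 mice), which was 7.93-fold its mean in the second type (B cells) and 18.6-fold that in the lowest (fibroblasts). The B cell mean (1420 CPM) rested on sham replicate 1, at 6604 CPM. Without that mouse it was 772 CPM (n = 8 mice), and the second type was smooth muscle cells and pericytes, at 1384 CPM, which cardiomyocytes exceeded 8.13-fold. Trdn, triadin, which holds the release complex together, averaged 1669 ± 278 CPM, 5.72-fold over the second type. Cacna1c, the pore of the L-type channel, averaged 10644 ± 2245 CPM and was 4.49-fold over smooth muscle cells and pericytes, at 2371 ± 800 CPM (SD, n = 5 mice). Jph2, junctophilin 2, which ties the sarcoplasmic reticulum to the surface membrane, averaged 533 ± 186 CPM, 3.92-fold over the second type. Pln, phospholamban, the inhibitor of the pump, averaged 2389 ± 259 CPM, and Atp2a2, the pump SERCA2 itself, 3918 ± 675 CPM, at 3.9-fold and 3.54-fold over the second type. Casq2, calsequestrin 2, which stores calcium inside the reticulum, averaged 372.5 ± 77.3 CPM, 2.48-fold over smooth muscle cells and pericytes (150.1 ± 38.8 CPM). These 7 genes had every cardiomyocyte sample above every sample of the other 6 types that had 20 or more nuclei in several mice.

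Slc8a1 and Camk2d were not limited to cardiomyocytes. Slc8a1, the sodium-calcium exchanger, averaged 6798 ± 1922 CPM in cardiomyocytes, 2618 ± 1265 in B cells and 2574 ± 406 in myeloid cells (SD, n = 9 mice each), and B cells of sham replicate 1 reached 5198 CPM, over the lowest cardiomyocyte sample (3618 CPM). Camk2d, the delta form of the calcium and calmodulin-dependent kinase II, averaged 996 ± 127 CPM in cardiomyocytes and 790.4 ± 262 in myeloid cells, a ratio of 1.26, and the myeloid value was the higher of the pair in 3 of 9 mice. B cells and myeloid cells differed by less than their spread over mice for Slc8a1. Below myeloid cells, Camk2d followed the order endothelial cells (614 CPM), B cells (584), smooth muscle cells and pericytes (567), T cells (527) and fibroblasts (508), and neighbours in that order differed by less than their spread. Cardiomyocytes held 92.57% of all UMIs of Ryr2, 91.55% of Cacna1c, 90.04% of Trdn, 89.68% of Casq2, 89.34% of Jph2, 84.95% of Pln and 80.84% of Atp2a2, but 77.33% of Slc8a1 and 55.08% of Camk2d.

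**Figure D1:**
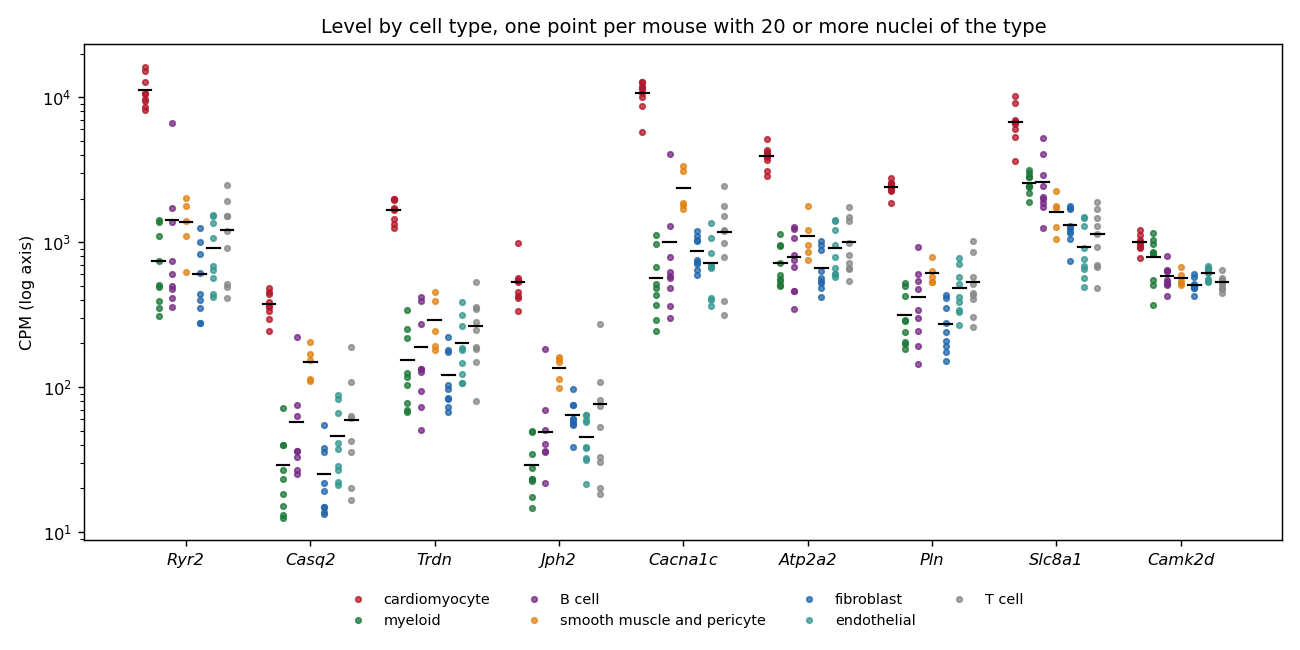
Level of 9 calcium handling genes by cell type, in CPM on a log axis, with 1 point per mouse with 20 or more nuclei of that type and a bar at the mean; points at 0 cannot be drawn on the log axis. Cardiomyocytes lie above all other types for 7 genes, while Slc8a1 overlaps with B cells and Camk2d with myeloid cells. Camk2d also overlaps with B cells through sham replicate 1 alone (807 CPM, the next B cell sample being at 643).

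Transcripts freed from broken cells enter other droplets, so the low levels elsewhere were set against a gene that only muscle cells should hold. Nuclei were thinned to 1000 UMIs each and shallower ones left out, which kept 10532 of 10545 cardiomyocytes and 9842 of 13463 endothelial nuclei, whose median depths before thinning were 4431 and 1277 UMIs. Ryr2 was then seen in 97.968% of cardiomyocytes and in 52.449% of endothelial nuclei, and in 99.346% and 66.612% of all nuclei of these types without thinning. For Casq2 these shares were 29.795% and 3.993%, and for Jph2 36.840% and 4.125%. Per Ttn UMI, Ryr2 in each of the 7 other named types lay within -0.12 to 0.21 (mean log2) of its ratio in cardiomyocytes. The upper value was that of Schwann cells, from 1 mouse. Camk2d per Ttn was 3.80 above that ratio in myeloid cells and 3.50 above it in fibroblasts (log2), and Slc8a1 was 2.84 above it in myeloid cells and 2.11 in fibroblasts. Atp2a2 per Ttn was 1.87 above it in fibroblasts, 1.71 in myeloid cells and 1.46 in endothelial cells, and Pln was 1.24, 1.19 and 1.24 above it in the same types. Casq2 per Ttn was 1.82 above it in smooth muscle cells and pericytes, and Jph2 1.43 in fibroblasts. Of the cardiomyocyte markers themselves, Tnni3 per Ttn was 2.95 above it in endothelial cells and 2.79 in myeloid cells, the widest of the 5. The other 4 (Myh6, Mybpc3, Tnnt2 and Actn2) lay 0.46 to 1.45 above it in endothelial cells and 0.44 to 1.21 in myeloid cells.

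Sln, sarcolipin, another inhibitor of the pump that is known from the atria in mice, was the exception. None of the 59546695 cardiomyocyte UMIs and none of the 10545 cardiomyocytes carried it, which allows a level of up to 0.0504 CPM, in a single sample of between 0.295 and 0.606 CPM, and a share of nuclei with a captured Sln UMI of up to 0.0284% (3 counts of the total, counting error only). The last value does not limit the share of nuclei that hold the transcript. A single Sln UMI was found in all nuclei, in an endothelial nucleus of SBP replicate 3. Markers of atrial muscle (4 genes with a row in the tables: Myl7, Myl4, Nppa and Sbk2) summed to between 16.7 and 40.4 CPM in cardiomyocytes, against 1042 to 2986 CPM for 3 ventricular markers (Myl2, Myl3 and Irx4). Sln was thus not detectable at this depth in nuclei whose ventricular markers far outweighed the atrial ones.

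The gene models differ in length, and long genes give more priming sites in nuclear RNA, so levels were set side by side only per length. Per kb of gene span (GENCODE vM21, GRCm38), the mean cardiomyocyte level was 287 CPM for Pln (chr10:53337667-53345987, 8.321 kb), 80.4 for Atp2a2 (chr5:122453513-122502225), 20.3 for Ryr2 (chr13:11553102-12106945, 553.844 kb), 18.6 for Slc8a1 (chr17:81373105-81738377) and 17.5 for Cacna1c (chr6:118587240-119196418, 609.179 kb). It was 8.63 CPM per kb for Jph2 (chr2:163336242-163397993), 6.2 for Casq2 (chr3:102086415-102146514), 4.21 for Trdn (chr10:33080554-33476709) and 3.98 for Camk2d (chr3:126596302-126846326). Pln was also first (866 CPM per kb) and Camk2d also last (44.3 CPM per kb) per kb of exon. Between them the order changed. Per kb of exon Cacna1c (502 CPM) was above Ryr2 (391) and Slc8a1 (361), and Trdn (178) was above Casq2 (136) and Jph2 (125). Whether the counting used strand is not stated in the sources used here, and Pln lies on the opposite strand within Cep85l, so reads of the pair may not have been told apart. The same holds for Cacna1c with Dcp1b and Slc8a1 with Gm11096. The Sln model (chr9:53850164-53854560) and that of Jph2 overlap no other gene.

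Within cardiomyocytes, none of the 9 genes that could be tested passed the test for a change with I/R, and the groups overlapped for all 9. The values below are summed UMIs per mouse scaled with trimmed mean of M values factors (scaled CPM) and tested with limma on log2(CPM + 1). Calls needed an adjusted p (Benjamini-Hochberg) no higher than 0.05 together with a log2 fold change beyond 0.25 in size. Of all 12908 genes tested for I/R against sham, 0.821% were called and the samples of the 2 groups did not overlap for 16.4%. Of the calcium handling genes 0 of 9 were called, 0 of 9 passed an unadjusted p of 0.05 and 0 of 9 had groups apart. Their log2 fold changes lay between -0.43 and 0.12 with a median of -0.13, and 8 of 9 were negative, where the median of all genes was -0.01. The 9 mice are separate samples per the labels, and p-values measure only the spread between these samples.

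Ryr2 stood at 15575, 9893 and 12917 scaled CPM in the 3 sham mice, at 16817, 10116 and 8269 in I/R mice and at 8823, 9509 and 9702 in SBP mice. The highest and the lowest of all 9 values both belonged to I/R mice, so that group enclosed the other two. The log2 fold change of Ryr2 in I/R against sham was -0.17 ± 0.29 (SE; 95% interval -0.81 to 0.47, adjusted p = 0.832, limma). In SBP against sham it was -0.43 (-1.07 to 0.21, adjusted p = 0.548, limma), with every SBP mouse below every sham mouse, and -0.28 without sham replicate 1.

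Casq2 stood at 463, 329 and 488 scaled CPM in sham mice, 399, 320.4 and 236 in I/R mice and 320.2, 365 and 439 in SBP mice. It gave the lowest p of the 9 genes in I/R against sham, with a log2 fold change of -0.43 ± 0.23 (-0.94 to 0.08, adjusted p = 0.428, limma), and the groups overlapped. Without I/R replicate 3, its lowest mouse, it was -0.23. Trdn stood at 1765, 1792 and 1997 scaled CPM in sham mice, 2055, 1199 and 1619 in I/R mice and 1433, 1706 and 1451 in SBP mice. All 3 SBP mice were below all 3 sham mice for Trdn (log2 -0.28, 95% interval -0.76 to 0.20, adjusted p = 0.617, limma). Its difference between I/R and sham was -0.22 (-0.70 to 0.26), and -0.01 without I/R replicate 2.

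Jph2 was the gene with the widest spread, 3.04-fold between its highest and lowest mouse. It stood at 468, 391 and 417 scaled CPM in sham mice, 548, 324 and 547 in I/R mice and 594, 543 and 985 in SBP mice. All 3 SBP mice were above all sham mice, SBP replicate 3 stood far above the others, and I/R replicate 2 was the lowest of all. In SBP against sham the log2 fold change was 0.68 ± 0.27 (0.10 to 1.27, unadjusted p = 0.0252, adjusted p = 0.3, limma), and in SBP against I/R it was 0.57 (-0.01 to 1.15, adjusted p = 1, limma). Without SBP replicate 3 these values were 0.43 and 0.31, and without I/R replicate 2 the second was 0.33. I/R differed from sham by 0.12 (-0.47 to 0.70). The share of cardiomyocytes with a Jph2 UMI, thinned to 1000 UMIs, was 32.9% ± 0.396 in sham mice, 33.9% ± 8.11 in I/R mice and 44.9% ± 10.5 in SBP mice (SD, n = 3 each).

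Cacna1c carries calcium into the cell. It stood at 11805, 9886 and 8699 scaled CPM in sham mice, 12289, 11089.7 and 5638 in I/R mice and 13836, 10157 and 12791 in SBP mice. I/R replicate 3 was far below the other 8 mice, and SBP mice overlapped with both groups. The log2 fold change in I/R against sham was -0.13 (-0.81 to 0.54, adjusted p = 0.879, limma), and without I/R replicate 3 it was 0.22. In SBP against I/R it was 0.41 (-0.27 to 1.08), and 0.06 without that mouse.

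Atp2a2 and Pln encode the pump and its inhibitor. Atp2a2 stood at 4271, 3574 and 3950.4 scaled CPM in sham mice, 4479.5, 2754 and 4064 in I/R mice and 3322, 3732 and 5131 in SBP mice. Groups overlapped in all 3 comparisons, and the log2 fold changes were -0.09 in I/R against sham (-0.64 to 0.46), 0.11 in SBP against I/R (-0.43 to 0.66) and 0.03 in SBP against sham (-0.52 to 0.57). Without SBP replicate 3, its highest mouse, the last 2 values were -0.06 and -0.14, and without I/R replicate 2 the second was -0.09. Pln had the narrowest spread of the 9 genes, 1.56-fold over all mice, at 2423, 2098 and 2560.1 scaled CPM in sham mice, 2324, 1780.5 and 2486 in I/R mice and 2593, 2493 and 2785 in SBP mice. Every SBP mouse was above every I/R mouse for Pln, by a small margin, and the log2 fold change was 0.27 (-0.17 to 0.71, unadjusted p = 0.206, adjusted p = 1, limma), and 0.13 without I/R replicate 2.

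The ratio of Pln to Atp2a2 UMIs within a library needs no scaling. It was 0.567, 0.587 and 0.648 in sham mice, 0.519, 0.646 and 0.612 in I/R mice and 0.780, 0.668 and 0.543 in SBP mice, and the 3 groups overlapped. The difference in mean log2 ratio was -0.02 for I/R against sham (two-sided exact permutation test, p = 0.9), 0.15 for SBP against I/R (exact p = 0.4) and 0.13 for SBP against sham (exact p = 0.6). All 3 gave 0.9 after Benjamini-Hochberg adjustment over the 3 comparisons, and 3 against 3 mice cannot go below 0.1.

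Slc8a1 removes calcium from the cell. It stood at 10431, 6478 and 5342 scaled CPM in sham mice, 9383, 6467 and 3517 in I/R mice and 6483, 6763 and 6542 in SBP mice. Replicate 1 was the highest in sham mice and in I/R, I/R replicate 3 was the lowest of all, and the 3 SBP mice lay close together between them. The log2 fold change in I/R against sham was -0.25 (-1.03 to 0.52, adjusted p = 0.781, limma), and 0.14 without I/R replicate 3. Camk2d stood at 1159, 845 and 1015 scaled CPM in sham mice, 1262, 945 and 761 in I/R mice and 1035, 939 and 1031 in SBP mice, with log2 fold changes of -0.04 in I/R against sham (-0.52 to 0.43), 0.05 in SBP against I/R (-0.43 to 0.52) and 0.00 in SBP against sham (-0.47 to 0.48).

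**Figure D2:**
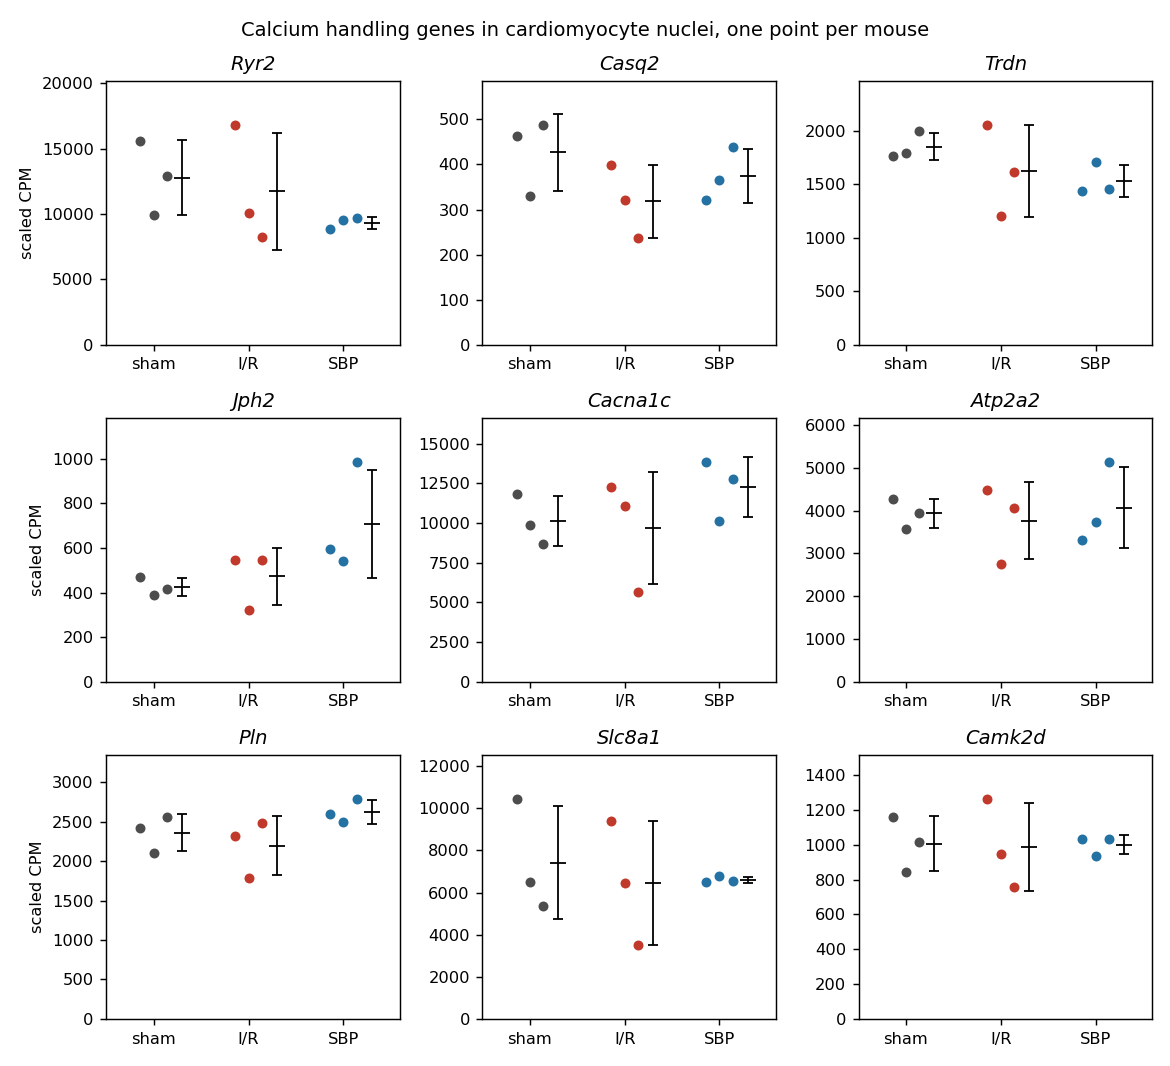
Scaled CPM of 9 calcium handling genes in cardiomyocytes, 1 panel per gene with an axis from 0, 1 point per mouse, and the group mean ± SD (n = 3) beside the points. I/R mice spread widely, for example from 3517 to 9383 for Slc8a1 and from 8269 to 16817 for Ryr2, and Jph2 of SBP replicate 3 stands alone at 985.

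The order of the I/R mice differed from gene to gene. I/R replicate 3 was the lowest of all 9 mice for Ryr2, Casq2, Cacna1c, Slc8a1 and Camk2d, while I/R replicate 2 was the lowest for Trdn, Jph2, Atp2a2 and Pln. Without I/R replicate 3, the differences between I/R and sham turned from negative to positive for Ryr2 (0.06), Cacna1c, Slc8a1 and Camk2d (0.14), and that of Jph2 from positive to -0.0022. Without I/R replicate 2 they turned positive for Atp2a2 (0.13) and Pln (0.04), without sham replicate 1 for Slc8a1 (0.02) and Camk2d (0.06), and without I/R replicate 1 that of Jph2 turned to -0.0091. None of the 9 genes was called in any comparison when any 1 mouse was left out. Differences of SBP from I/R or sham also turned for Ryr2, Trdn, Atp2a2, Slc8a1 and Camk2d when 1 mouse was left out. Without the 955 nuclei led by Spp1, which left 159 cardiomyocytes of I/R replicate 1, 0 of 9 genes were called in the 3 comparisons, and the log2 fold changes in I/R against sham lay between -0.53 and 0.06 with a median of -0.27, 8 of 9 being negative. In SBP against sham they lay between -0.43 and 0.68, as with these nuclei. Levels of other genes in these nuclei are given as a description. The stress genes Ankrd1, Nppb, Acta1, Xirp2 and Flnc summed to 598 to 845 CPM in sham mice, 1196 to 2843 in I/R mice and 1632 to 2801 in SBP mice. Much of this was Ankrd1, at 145 to 213 CPM in sham mice and 467 to 2026 in I/R mice, while Acta1 and Flnc overlapped between these groups. The 6 cardiomyocyte markers summed to 32553 to 39234, 20469.6 to 31971 and 24434 to 26392 CPM, and 6 myeloid markers to 38.1 to 44.1, 65.0 to 104 and 46.9 to 65.9 CPM. The part of these in the calcium handling values was not tested.

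SBP against I/R gave no call at all. The study lists Cacna1c and Jph2 as raised and Ryr2 as lowered by SBP in cardiomyocytes. It used a count model (DESeq2), its own cell types and more nuclei. The estimates here had the same signs, at 0.41, 0.57 and -0.26 (log2), and were not called. Of all genes tested in cardiomyocytes 0% were called, 280 had an unadjusted p under 0.05 (limma), and the 2 groups did not overlap for 5.58%. Of the calcium handling genes 0 of 9 were called, 0 of 9 had an unadjusted p under 0.05 and 1 of 9, Pln, had groups apart. The median log2 fold change was 0.14, with 7 of 9 positive, and the median of all genes was 0.00. Without the 955 nuclei led by Spp1 the median was 0.33 with 8 of 9 positive, Trdn turning from -0.06 to 0.07, Slc8a1 going from 0.14 to 0.33, Atp2a2 from 0.11 to 0.24 and Pln from 0.27 to 0.42, and Ryr2 going from -0.26 to -0.13. For SBP against sham 0.132% of all genes were called and 23.2% had groups apart. Here 0 of 9 calcium handling genes were called, 1 of 9 (Jph2) had an unadjusted p under 0.05 (limma), and 3 of 9 had groups apart, Jph2 higher and Ryr2 and Trdn lower. I/R against sham and SBP against sham share their sham mice.

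**Figure D3:**
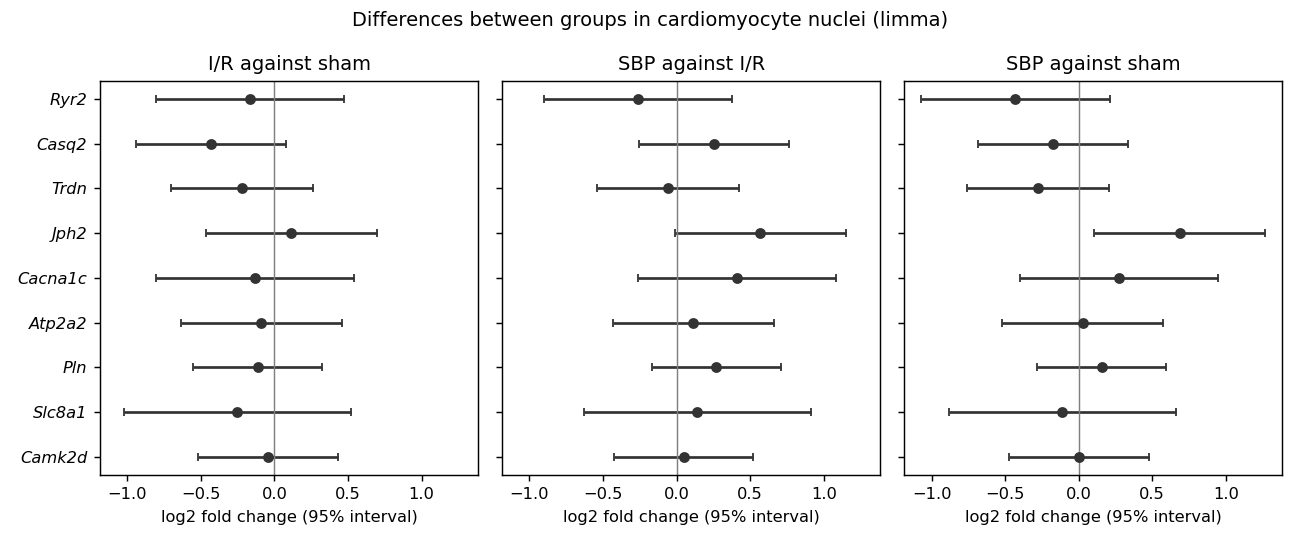
Log2 fold change of 9 calcium handling genes in cardiomyocytes for 3 comparisons, with points for the limma estimate and bars for the 95% interval. All intervals include 0 except that of Jph2 in SBP against sham (0.10 to 1.27), which gave an adjusted p of 0.3.

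Around these 10 genes stood 83 others of the same pathways, of which 70 could be tested in cardiomyocytes. They cover channel subunits, the release complex, the dyad, pump regulators, extrusion, inositol trisphosphate receptors and store-operated entry, mitochondrial calcium transport, and calmodulin with its kinases and phosphatase. None of the 70 was called in any of the 3 comparisons (limma). An unadjusted p under 0.05 was found for 18 of the 70 in I/R against sham, 2 in SBP against I/R and 12 in SBP against sham, where 14.1%, 2.17% and 13.4% of all genes had one. Groups were apart for 17, 2 and 18 of the 70, against 16.4%, 5.58% and 23.2% of all genes.

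The 4 genes with the smallest p in I/R against sham were Hrc, Tmem38b, Camk2a and Rcan1, with Mrln next at the same rounded p as Rcan1 (0.00476). Hrc, a histidine-rich calcium-binding protein of the reticulum, stood at 60.9, 109 and 73.5 scaled CPM in sham mice, 47.0, 28.1 and 34.7 in I/R mice and 29.4, 34.1 and 35.8 in SBP mice. Every sham mouse was above all 6 others, with a log2 fold change of -1.12 ± 0.24 in I/R (adjusted p = 0.0614, limma) and -1.23 in SBP against sham (adjusted p = 0.068, limma). Tmem38b, a channel that carries a counter-current of potassium in the reticulum, stood at 19.4, 14.7 and 23.9 in sham mice, 30.3, 77.0 and 54.6 in I/R mice and 48.6, 42.5 and 31.5 scaled CPM in SBP mice. All 6 ligated mice were above the sham mice, with log2 differences of 1.36 ± 0.31 (adjusted p = 0.0819, limma) and 1.05 (adjusted p = 0.191, limma).

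Camk2a, the alpha form of the kinase whose delta form is Camk2d, stood at 115, 103 and 73.4 scaled CPM in sham mice, 67.9, 55.1 and 45.6 in I/R mice and 89.4, 75.3 and 96.9 in SBP mice. All I/R mice were below all others, by a log2 fold change of -0.77 against sham (adjusted p = 0.131, limma), and SBP was 0.64 above I/R (unadjusted p = 0.0101, adjusted p = 1, limma). Rcan1, an inhibitor of the phosphatase calcineurin and itself one of its target genes, stood at 61.5, 44.1 and 61.6 in sham mice, 81.6, 109 and 91.3 in I/R mice and 116, 69.8 and 86.5 scaled CPM in SBP mice. It was higher in all 6 ligated mice, by 0.75 in I/R (adjusted p = 0.152, limma) and 0.68 in SBP (adjusted p = 0.214, limma). Mrln, myoregulin, an inhibitor of the pump that was named after its values were seen, rested on 4 to 63 UMIs per mouse. It stood at 0.759, 2.14 and 1.79 in sham mice, 4.76, 6.79 and 4.84 in I/R mice and 12.1, 3.21 and 5.12 scaled CPM in SBP mice. All 6 ligated mice were above the sham mice, by 1.36 ± 0.39 in I/R (adjusted p = 0.152, limma) and 1.49 in SBP (adjusted p = 0.137, limma).

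The count in the wider set rested on 1 mouse. Without I/R replicate 1, 8 of its 70 genes were called in I/R against sham, where 6.23% of all genes were called in place of 0.821%. These were Tmem38b and Ppp1cb (a catalytic subunit of protein phosphatase 1) higher and Hrc, Itpr1 (an inositol trisphosphate receptor), Camk2a, Adrb1 (the beta-1 adrenergic receptor), Strit1 (a small protein that activates the pump) and Cacna1g (a T-type channel) lower. Hrc and Tmem38b were also called in SBP against sham without that mouse, where 2.11% of all genes were called. Leaving out any other of the 9 mice gave 0 calls in the wider set. Without the 955 nuclei led by Spp1, most of them from the same mouse, 4 genes were called in I/R against sham, where 2.76% of all genes were called: Tmem38b (1.64) and Rcan1 (1.02) higher and Hrc (-1.22) and Camk2a (-0.85) lower (log2; adjusted p = 0.00695, 0.0458, 0.0175 and 0.0461, limma).

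In the other cell types, 5 to 7 of the 9 transcripts fell after I/R. Slc8a1 was called in none of the 3 types, and Camk2d was above 0 in all 3. In endothelial cells 5 of 9 calcium handling genes were called lower in I/R against sham, where 2.99% of 12227 genes were called: Ryr2, Atp2a2, Pln, Casq2 and Trdn. In fibroblasts 6 of 9 were called lower, against 11.5% of all genes in both directions, Jph2 being added. In myeloid cells 7 of 9 were lower and 1 higher, against 17.5%. The 6 cardiomyocyte markers moved beside them, with 5 of 6 called lower in endothelial cells, 6 of 6 in fibroblasts and 6 of 6 in myeloid cells (Ttn by -1.15, -1.45 and -1.58, log2), and 0 of 6 called in cardiomyocytes. In cardiomyocytes the log2 fold changes of all 6 markers were negative (median -0.52). There 2 of 6 had an unadjusted p under 0.05 (limma) and 3 of 6 had groups apart, against 14.1% and 16.4% of all genes. The part of freed cardiomyocyte RNA in the values of the other 3 types was not tested.

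Ryr2 shows the size of the fall. In myeloid cells it stood at 1463, 1325 and 1117 scaled CPM in sham mice, 728, 505 and 383 in I/R mice and 508, 351 and 309.7 in SBP mice. In endothelial cells it stood at 1540.3, 1482 and 1348, then 1069, 649.9 and 682, then 589.6, 436 and 414, and in fibroblasts at 1277, 1010.5 and 868, then 587, 429 and 354, then 409, 275 and 272. All sham mice were above all I/R and SBP mice in the 3 types. The log2 fold changes in I/R against sham were -1.31 ± 0.24 in myeloid cells (adjusted p = 0.00354, limma), -0.90 ± 0.20 in endothelial cells (adjusted p = 0.0336) and -1.21 ± 0.22 in fibroblasts (adjusted p = 0.00528).

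Over the 9 genes, the median log2 fold change in I/R against sham was -1.15 in myeloid cells, -0.90 in endothelial cells and -0.88 in fibroblasts, and over the 6 markers it was -1.61, -1.18 and -1.45. The medians of all genes tested lay near 0 (-0.03 in endothelial cells). Casq2 fell by 1.45 in myeloid cells, 1.38 in endothelial cells and 1.38 in fibroblasts on the log2 scale. In the same order of types, Trdn fell by 1.34, 1.03 and 1.17, Pln fell by 1.15, 0.90 and 1.12, and Atp2a2 fell by 0.77, 0.78 and 0.88. Jph2 fell by 0.76 in fibroblasts and 1.04 in myeloid cells and gave -0.94 in endothelial cells (adjusted p = 0.074, limma). Cacna1c fell by 1.29 in myeloid cells, gave -0.95 in endothelial cells (adjusted p = 0.128, limma), and gave -0.42 in fibroblasts with groups overlapping (adjusted p = 0.338, limma).

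**Figure D4:**
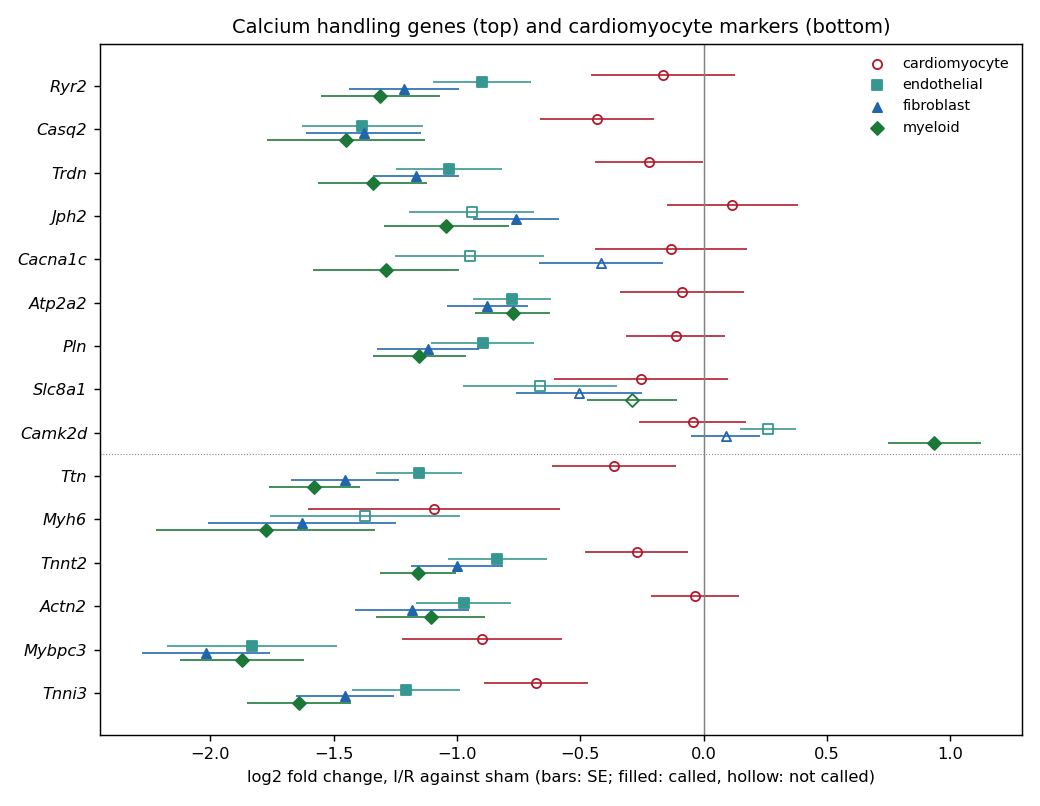
Log2 fold change in I/R against sham for 9 calcium handling genes (above the dotted line) and 6 cardiomyocyte markers (below it) in 4 cell types, with bars for the SE. Filled symbols passed the test and hollow ones did not, and no gene shown passed it in cardiomyocytes. Camk2d in myeloid cells, at 0.94, lies on the other side of 0 from the rest of that type.

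The difference in change between types was tested as well, a comparison chosen after the values were seen. In I/R against sham, 3 of 9 genes fell more in myeloid cells than in cardiomyocytes, where 4.87% of 10149 genes differed in either direction: Ryr2 by -1.15, Pln by -1.04 and Cacna1c by -1.15 (log2; adjusted p = 0.0494, 0.0404 and 0.0285, limma). Of the 6 cardiomyocyte markers only Ttn passed it (-1.21, adjusted p = 0.0255, limma). The others lay between -0.68 (Myh6) and -1.07 (Actn2), with adjusted p from 0.0575 to 0.313 (limma). In fibroblasts 0 of 9 genes passed this test, against 2.23% of all genes, and in endothelial cells 0 of 9, against 0.0264%. The 95% intervals of the difference lay below 0 for 7 of 9 genes in myeloid cells, 6 of 9 in fibroblasts and 7 of 9 in endothelial cells, for example for Ryr2 (-1.05, -1.67 to -0.42, adjusted p = 0.0854, limma), Pln (-1.01) and Trdn (-0.95) in fibroblasts and for Jph2 (-1.06) and Casq2 (-0.95) in endothelial cells. These intervals are not adjusted, and the share of all genes with such an interval is not given here. Among the cardiomyocyte markers, the intervals of Ttn, Actn2 and Mybpc3 also lay below 0 in all 3 types. Those of Tnnt2 and Tnni3 did so in fibroblasts and myeloid cells only, and that of Myh6 included 0 in each type. Whether the difference was larger in myeloid cells than in fibroblasts or endothelial cells was not tested.

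SBP against sham, which shares its sham mice with the comparison above, was counted in the same way. There 4 of 9 genes were called lower in endothelial cells (1.93% of all genes), 5 of 9 in fibroblasts (6.00%), and 7 of 9 lower and 1 higher in myeloid cells (12.6%). For SBP against I/R 0 of 9 genes were called in endothelial cells, fibroblasts or myeloid cells, where 0% of all genes were called in each of the 3 types and 619, 467 and 426 genes had an unadjusted p under 0.05 (limma). Of the 9 calcium handling genes 1, 1 and 0 had such a p, Ryr2 each time. It gave -0.72 in endothelial cells (-1.15 to -0.29, unadjusted p = 0.00352, adjusted p = 0.967, limma) and -0.51 in fibroblasts (unadjusted p = 0.0413, limma). The endothelial counts were the least firm. Without I/R replicate 2, sham replicate 2 or sham replicate 3, 0 of 9 genes were called in I/R against sham, where 0.842%, 0.516% and 0.917% of all genes were called. Without a group of 425 endothelial nuclei rich in cardiomyocyte transcripts the count was 4 (2.64% of all genes).

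Camk2d rose in myeloid cells, where 7 of the other 8 transcripts fell and Slc8a1 was not called. It stood at 380.2, 492 and 558 scaled CPM in sham mice, 830.3, 1063 and 828 in I/R mice and 835, 1153 and 976 in SBP mice. All 6 ligated mice were above all 3 sham mice. The log2 fold change was 0.94 ± 0.19 in I/R against sham (95% interval 0.53 to 1.34, adjusted p = 0.00523, limma) and 1.06 ± 0.19 in SBP against sham (adjusted p = 0.00353, limma). Myeloid nuclei numbered 369, 666 and 772 in sham mice, 2185, 1383 and 1014 in I/R mice and 641, 1512 and 668 in SBP mice, and the part of a changed make-up of this mixed type in the value of Camk2d was not tested.

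In endothelial cells Camk2d stood at 531, 543 and 536 scaled CPM in sham mice, 613, 701 and 617 in I/R mice and 684, 643 and 659 in SBP mice. The groups of I/R and sham did not overlap, and the difference did not pass the adjusted test (log2 0.26, 95% interval 0.01 to 0.51, adjusted p = 0.258, limma). In fibroblasts it was 0.09 (-0.22 to 0.39). Slc8a1, the other gene shared with myeloid cells, stood there at 2882, 2725 and 3044 scaled CPM in sham mice, 3122, 1960.0 and 2128 in I/R mice and 2424, 2429 and 2438 in SBP mice. I/R replicate 1 was above all sham mice and the other I/R mice were below them, with a log2 fold change of -0.29 (-0.69 to 0.10, adjusted p = 0.297, limma). The change of Camk2d in myeloid cells less that in cardiomyocytes was 0.98 (0.31 to 1.65, adjusted p = 0.0848, limma), which did not pass the threshold.

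**Figure D5:**
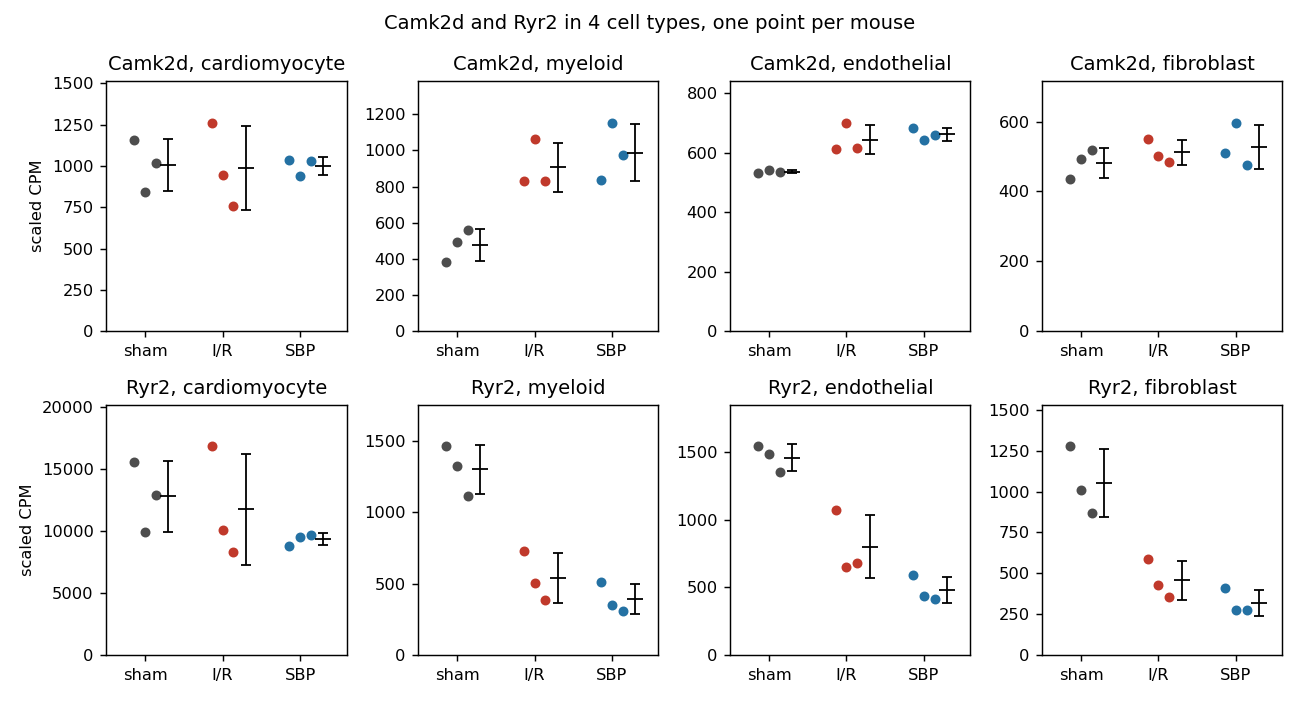
Scaled CPM of Camk2d (top) and Ryr2 (bottom) in cardiomyocytes, myeloid cells, endothelial cells and fibroblasts, with axes from 0, 1 point per mouse and the group mean ± SD (n = 3). In myeloid cells Camk2d is at 380.2 to 558 in sham mice and 828 to 1153 in the other mice, and Ryr2 runs from 1117 to 1463 in sham mice and 309.7 to 728 in the others.

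A small group of 377 cardiomyocytes, 16 to 78 per mouse, was led by Cntn2, which encodes a cell adhesion protein, and carried the genes in other proportions. Markers of other cell types were also higher in it than in cardiomyocytes as a whole, at 827.3 against 283.4 CPM for the fibroblast markers and 150.5 against 61.3 CPM for the myeloid markers. Their part in the values of this group was not tested. Because the group came from clustering the same nuclei, its values are a description with no test. Ryr2 averaged 7424 ± 2554 CPM in it and 11370 ± 2879 in the other cardiomyocytes (SD, n = 9 mice), a mean log2 difference of -0.65, and was lower in 9 of 9 mice. Cacna1c (-0.69), Slc8a1 (-0.30) and Camk2d (-0.30) were also lower in 9 of 9 mice and Jph2 (-0.46) in 8 of 9. Pln was higher in 9 of 9 mice (0.26), Atp2a2 (0.10) and Casq2 (0.13) were higher in 7 of 9, and Trdn (-0.11) was lower in 7 of 9. Markers of muscle went both ways. Tnni3 (1.70), Myh6 (0.56), Mybpc3 (0.52), Tnnt2 (0.35), Myl2 (1.63), Myl3 (2.34) and Nppa (3.77) were higher in 9 of 9 mice. Ttn (-0.35) was lower in 9 of 9, Actn2 (-0.07) in 7 of 9 and Irx4 (-0.15) in 6 of 9. Among other atrial markers, Sbk2 was higher in 7 of 9 and Myl4 in 5 of 9. Sln was not detected there. Without this group the number of calcium handling genes called in cardiomyocytes was 0 in all 3 comparisons.

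The genes whose levels over 7 cell types were most like each of these are given as a description (Pearson r of mean log2 levels, 7 types from shared libraries, 16902 genes considered). Ryr2 was nearest to Fhod3 and Ttn (r = 0.999 and 0.998), Trdn to Myom2 and Fhod3 (0.998 each), Pln to Myom2 and Ttn (0.996 each), and Atp2a2 to Myoz2 and Corin (0.998 each). Jph2 was nearest to Dtna (0.996) and 9230112J17Rik (0.993), Cacna1c to Map3k21 (0.989) and Gm15328 (0.988), and Casq2 to A330094K24Rik (0.987) and Cap2 (0.985). Slc8a1 had the weakest partners, Plekhm2 (0.974) and Arfgef2 (0.966), and Camk2d was nearest to Gm14902 and Cpeb4 (0.984 each).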

How the data were processed

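Hearts of 9 mice were profiled by sNuc-seq on the 10x 3' platform. In the study's methods, the authors cleaned reads with fastp, ran CellRanger on mm10, and evened out read depth by down-sampling. Nuclei had to show more than 200 genes and less than 10% mitochondrial UMIs, mitochondrial genes were removed, and Seurat normalized the rest. The submitters' processing notes name Cell Ranger 4.0, STAR, Seurat 3.2.0 and GRCm38, which is not the Cell Ranger version of the methods. The deposited unit, set by the authors, is the natural log, ln(1 + 10000 × UMIs of a gene / UMIs of the nucleus). Undoing the log and taking the smallest value of a nucleus as 1 UMI gave back UMI numbers, and at least 99.999% of values lay within 0.1 of a whole number. The study's count model (DESeq2, used by the authors) was not run here. The deposited values are not counts, so limma was fitted to log values of the sums of recovered UMIs.

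Nuclei were clustered with Scanpy 1.11.5 (Leiden, 1993 variable genes, none of them a member or in the wider list, 30 principal components, 20 neighbours, resolution 0.3) and named from marker genes, with at least 3 markers detected in over 10% of nuclei. UMIs were summed per mouse and type (at least 20 nuclei), scaled with trimmed mean of M values factors and fitted as log2(CPM + 1) with limma 3.58.1 (R 4.3.3; trend, robust) over all 9 samples of a type. A fold change on this scale is too small for genes with low values. Tested genes reached, in 3 samples, the CPM that 10 UMIs give in a library of median size, and had 15 UMIs in all. P-values were Benjamini-Hochberg adjusted over all genes tested. The code was tested on simulated data. Intervals of shares and limits of zero counts cover counting error only.

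The 10 members, the wider list of 83 genes and the tests were chosen with earlier results of these data known. All members are named, and of the wider list every gene called in cardiomyocytes or, where none was called, the 4 with the smallest p in I/R against sham. Mrln and the 8 genes given without I/R replicate 1 were named after their values were seen. The titles gave each replicate number. Deviations from the group means of same-numbered cardiomyocyte samples correlated between -0.31 and 0.25 over 9 pairs, so the numbers were not taken to pair the mice. Alternatives covered scaling, filters, pseudocount, naming of types, clustering, doublets, the replicate block and leaving out each mouse.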

Additional observations from a re-analysis of the deposited data

Results flagged for a closer look

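The change of 3 calcium handling genes in I/R against sham differed between myeloid cells and cardiomyocytes by a limma test of the difference itself, which was chosen after the values were seen. Change in myeloid cells less change in cardiomyocytes was -1.1453 for Ryr2 (log2; 95% interval -1.79 to -0.50, adjusted p = 0.0494), -1.0410 for Pln (-1.59 to -0.49, adjusted p = 0.0404) and -1.1533 for Cacna1c (-1.70 to -0.61, adjusted p = 0.0285). Of the 6 cardiomyocyte markers only Ttn passed this test (-1.21, adjusted p = 0.0255, limma). The others gave -0.68 to -1.07 (adjusted p from 0.0575 to 0.313, limma). Values of all 3 calcium handling genes were lower in the myeloid cells of I/R mice, with no overlap with sham, and overlapped between the groups in cardiomyocytes. In myeloid cells all 6 cardiomyocyte markers were called lower as well. Per Ttn UMI, myeloid cells lay 0.10 (Ryr2), -0.16 (Cacna1c) and 1.19 (Pln) from the ratio in cardiomyocytes (mean log2). The part of freed cardiomyocyte RNA in these myeloid values was not tested. The adjusted p of each of these 3 genes is near the threshold, and 4.87% of all genes tested differed between the 2 types.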

How the results depend on the processing

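The number of calcium handling genes called in cardiomyocytes stayed at 0 in all 3 comparisons under other pseudocounts, scalings, filters, clusterings, doublet treatments, a plain limma fit and each mouse left out. Summing all nuclei of a heart in place of cardiomyocytes gave 2 calls in I/R against sham (Casq2 -0.9999 and Trdn -0.7744, log2; adjusted p = 0.0146 and 0.0447, limma), where 10.8% of all genes were called. In the wider list this gave 20 calls in I/R against sham and 3 in SBP against sham (2.96% of all genes), and fitting only the 6 samples compared gave 3 in SBP against sham (3.12% of all genes). Leaving out the nuclei led by Spp1 gave 4 in I/R against sham. Leaving out 1 mouse gave 0 to 8 calls in the wider list for I/R against sham and 0 to 2 for SBP against sham. In endothelial cells the count for I/R against sham (5) was 1 with only the 6 samples compared, 1 with plain limma, 3 with types set by the highest marker score and 0 to 5 without 1 mouse, and for SBP against sham (4) it was 7 with only the 6 samples compared and 2 to 6 without 1 mouse. The mean of the deposited natural log values gave 3 in place of 6 calls in fibroblasts for I/R against sham and 2 in place of 5 for SBP against sham. In myeloid cells leaving out 1 mouse gave 5 to 8 calls for SBP against sham (8), with 5 without sham replicate 2, SBP replicate 2 or SBP replicate 3. The causes were not tested. The share of all genes called moved too, in endothelial cells for I/R against sham from 2.99% to 0.516% without sham replicate 2. For most settings in these 3 types that share is not given here. Without it, these counts cannot tell a change of the calcium handling genes from a change of the whole test. Camk2d in myeloid cells kept its call and direction in all 23 alternatives, between 0.80 and 1.08 (log2; adjusted p from 0.00439 to 0.024, limma). Between 0 and 3 counts of a transcript limit Sln.

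With the replicate block, 3 genes in place of 5 were called in endothelial cells in I/R against sham, and the block moved no other count of calcium handling genes by over 1.5 times. The share of all genes called there under the block is not given here. Over all genes it moved the calls in SBP against sham from 236 to 138 in endothelial cells and from 17 to 10 in cardiomyocytes. Same-numbered samples shared only a number, with 2 of 9 pairs correlated over 0.1. Under the block the Pln to Atp2a2 ratio gave exact p = 1, 0.75 and 0.75 (sign-flip test, smallest possible 0.25). All cardiomyocytes formed 1 cluster, so the alternative of using only the largest gave no value of its own. Leaving out the nuclei led by Cntn2 or by Spp1 or the endothelial nuclei rich in cardiomyocyte transcripts was chosen after seeing the data.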
